A study of Rattus norvegicus with 196 samples.

Results

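Adora2a, the transcript ENSRNOT00000001759 that encodes an adenosine receptor, was followed in bulk RNA-seq of 25 rat brain regions after chronic fluoxetine. It was taken by its name from the study's list of named transcripts and is 1 of the 29188 transcripts counted. The rats are labelled as 2 months old and drank either water (Sham) or fluoxetine at 18 mg/kg body weight (FT) for 6 weeks. Per the study's methods they were male Long-Evans animals, and each sample was a pool of tissue punches from several animals, so an animal's own value was not measured. The 98 FT and 98 Sham samples carried the replicate numbers 1, 3, 4 and 5, and the FT and Sham samples of a number had been processed in parallel. Every region had 4 samples of each treatment except MPOA, with 2 FT samples, and Arc, with 2 Sham samples. Punches from different regions with the same number may come from the same animals. The joint fits below nevertheless take the samples of different regions as independent apart from a term for the replicate number or pair, so their p-values may be too small.

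Its product is a G protein-coupled receptor that responds to extracellular adenosine and raises cAMP through stimulatory G proteins. In the brain it is best known from the striatum, where it sits on the medium spiny neurons of the indirect pathway together with the dopamine D2 receptor (DRD2) and the opioid peptide precursor proenkephalin (PENK). Caffeine is its familiar antagonist.

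Total counts per library ranged from 4586 to 50893913, with a median of 11921178. Libraries of replicate 3 were the shallowest, with a median of 6309544, and their 50 most abundant transcripts held a median of 68.2% of the counts, against 28.3% to 34.8% in the other numbers. Levels are therefore given as CPM, the counts scaled to a common library size with TMM factors, and FT was compared with Sham within replicate numbers. Adora2a had between 0 and 4619 counts. The Sham libraries of replicate 3 had 0 counts in SNT (of 4586) and in ILC (of 543403), which allows levels of up to 654 and 5.52 CPM before TMM scaling and covers counting error only. GEO's notes say that the raw reads of 8 samples were corrupted. Their counts were used here. They were the Sham libraries of replicate 1 in BLA, LH, PLC, VMH and dorDG, and NaCcore FT replicate 1. Sham replicates 1 and 5 of BNST were also among them.

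The first question was where Adora2a is found in untreated brain. In Sham animals it was highest in the nucleus accumbens. The level was 132 ± 90.4 CPM (SD, n = 4) in NaCcore (core) and 109 ± 30.7 (n = 4) in NaCshell (shell). BLA (basolateral amygdala) followed at 86.6 ± 36.6 (n = 4), BNST (bed nucleus of the stria terminalis) at 44.7 ± 24.5 (n = 4) and LS (lateral septum) at 32.4 ± 9.96 (n = 4). An intermediate level was found in MPOA (medial preoptic area), at 13.9 ± 4.80 (n = 4), and in MS (medial septum), at 11.0 ± 3.96 (n = 4). The other 18 regions all had Sham means below 6 CPM, from 4.85 in MDT down to 0.702 in Arc. The 2 Arc samples were of replicates 4 and 5, at 0.587 and 0.816 CPM. In the same numbers dorDG had 0.633 and 0.559 CPM and venDG 0.700 and 0.433. The joint fit described below, with the replicate number as a block, put dorDG at -2.64 and Arc at -2.37. These are log2 differences from the other 24 regions. Arc as the lowest region thus rests on unequal sets of replicates. The highest Sham mean, in NaCcore, was 188 times the lowest, in Arc. The NaCcore mean includes replicates 1 and 3, at 238 and 175 CPM, which are missing from Arc Sham. In replicates 4 and 5 NaCcore had 69.1 and 45.4 CPM, so the ratio is smaller on the shared numbers.

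In the 3 highest regions the Sham samples were widely spread, and under TMM scaling replicates 1 and 3 lay above replicates 4 and 5. The NaCcore samples of replicates 1, 3, 4 and 5 stood at 238, 175, 69.1 and 45.4 CPM. In NaCshell the same numbers gave 122, 141, 104 and 69.0 CPM, and in BLA 103, 130, 61.0 and 51.9 CPM. The samples of these 3 regions overlapped throughout. The order of the replicates depended on the scaling, since with total counts replicate 3 was the lowest in each of the 3 regions, at 65.8, 80.5 and 55.0 CPM.

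In 1 joint edgeR quasi-likelihood fit of the 98 Sham samples, the accumbens mean lay 4.78 (SE 0.13) above the mean of the other 23 regions on the log2 scale, a ratio of 27.5, with adjusted p = 2.5e-47. Of all transcripts tested, 26.2% differed and 14.3% were higher in the accumbens at an adjusted p of 0.05. Taken one at a time against the other 24, Adora2a was higher in 7 regions (NaCcore, NaCshell, BLA, BNST, LS, MPOA and MS) and lower in 13. The 5 that did not pass were CMA, ILC, InsularCortex, LC and MDT. In these 25 contrasts between 5.17% and 30.5% of transcripts passed in either direction. Differences between regions were the rule in these data, since the F test over regions passed for 72.5% of transcripts (Adora2a, F = 76.1).

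Most neighbours in the order of levels lay within 1 pooled SD of each other. This SD includes the differences shared by samples of a replicate number, and the steps were not tested within numbers. Under TMM scaling NaCshell lay above BLA within each number, as did MPOA above MS. BNST lay above LS only in replicates 1 and 3. When the regions were ranked by mean log2 CPM, only 3 of the 24 steps exceeded 1 pooled SD of the samples. These were the step from BLA down to BNST (1.04, against an SD of 0.76), from LS to MPOA (1.22 against 0.49) and from MS to MDT (1.29 against 0.74). NaCcore and NaCshell differed by 0.06 (SE 0.36) in the joint fit, with adjusted p = 1.00 (0% of transcripts passed), and the sign of this difference turned when replicate 1 or replicate 3 was left out and under scaling by total counts.

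**Figure D1:**
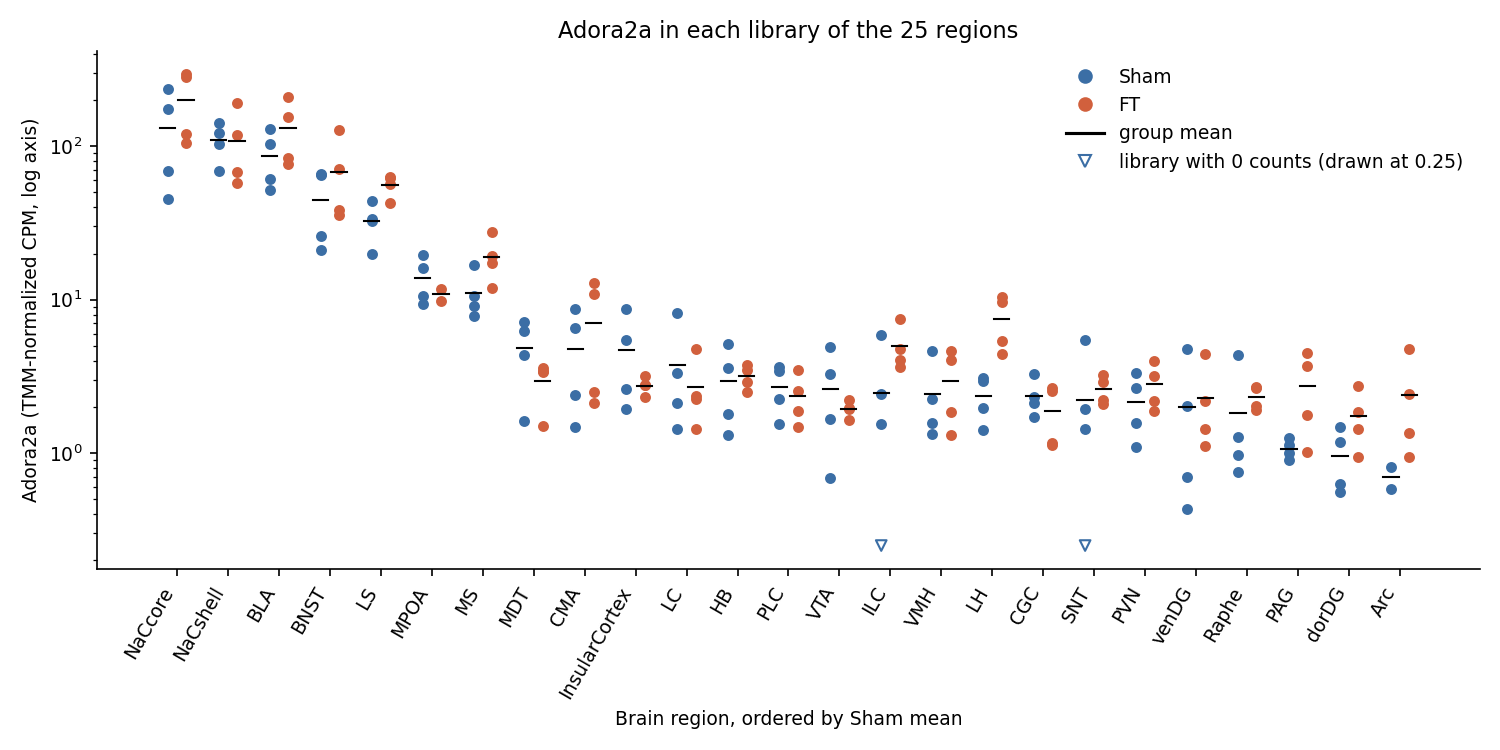
Adora2a in every library, with 1 point per sample, regions ordered by Sham mean along the horizontal axis and TMM-normalized CPM on a logarithmic vertical axis. The accumbens, BLA, BNST and LS stand at the left, 18 regions lie below 6 CPM in Sham, and LH and Arc are the regions where all FT points are above all Sham points.

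The level in BLA touches on the label of that region. The amygdala's cortical-type excitatory markers have no identifier in the tables used here and were not analysed, whereas striatal markers were measurable. Ppp1r1b, which encodes the dopamine-regulated phosphatase inhibitor DARPP-32, had 240 ± 116 CPM in BLA (SD, n = 4), against 397 ± 255 in NaCcore (n = 4). DRD2 had 58.2 ± 15.9 (n = 4), against 64.5 ± 24.9. PENK was higher in BLA than in any other region by its Sham mean, at 1646 ± 659 CPM (n = 4), against 1005 ± 509 in NaCcore. The summed level of the 6 striatal markers measured (Ppp1r1b, Rasd2, Syndig1l, Scn4b, DRD2 and PENK) ran from 1189 to 3066 CPM over the BLA Sham samples, from 874 to 2641 in NaCcore and from 332 to 1505 in BNST. PENK was the largest part of this sum. Rasd2 had 195 ± 53.9 CPM in BLA against 187 ± 59.3 in NaCcore. Scn4b had 75.8 ± 17.9 against 80.5 ± 37.6, and Syndig1l 56.6 ± 26.4 against 84.1 ± 76.0. Although listed as striatal markers, these 2 were not particular to striatal regions. The Sham mean of Scn4b was higher in SNT (122 CPM) and Raphe (101 CPM) than in NaCcore, and Syndig1l had 47.9 CPM in PVN. The Adora2a level in BLA thus stood beside striatal markers whose BLA samples overlapped those of NaCcore for each of the 6. The means of Ppp1r1b, Syndig1l, DRD2 and Scn4b were lower in BLA than in NaCcore, and those of Rasd2 and PENK were higher. Whether the punches held neighbouring striatal tissue was not tested.

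To see which transcripts share this distribution, the Sham means of log2 CPM over the 25 regions were correlated with those of Adora2a for 15296 transcripts. These values are descriptive, because regions share library batches and animals. The 10 named transcripts most like Adora2a began with Ppp1r1b (Pearson r = 0.88), PENK (0.81), DRD2 (0.81) and Rasd2 (0.80), the last encoding a striatal small GTPase. They went on with the kinase Rps6ka4 (0.76), Pcp4l1 (0.75), Syndig1l (0.73), Lppr1 (0.72), DEPP (0.71) and Gad2 (0.69), which encodes a GABA-synthesizing enzyme. The median over all transcripts was 0.12. There were 11 transcripts without a name ahead of Ppp1r1b, the highest with r = 0.93. With ranks in place of levels, 5 of these 10 stayed among the 10 most like, and without the accumbens 7 did. Ppp1r1b kept r = 0.81 without NaCcore and NaCshell.

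**Figure D2:**
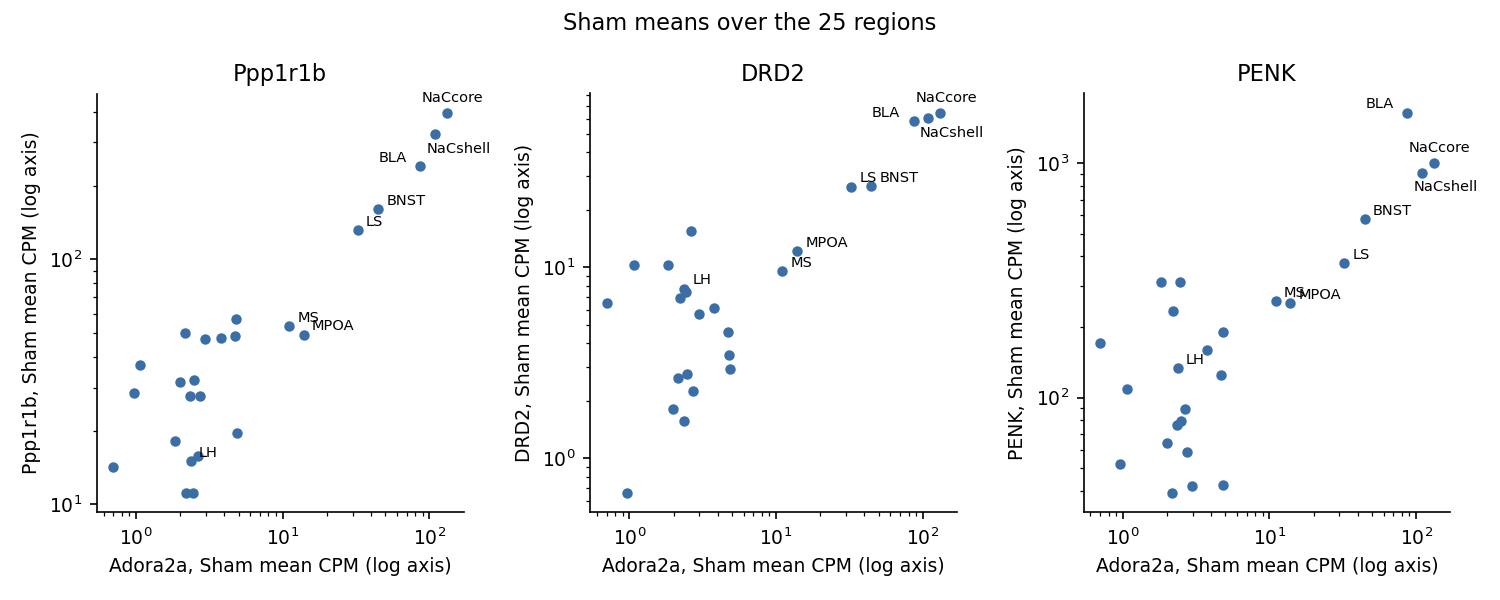
Sham means in the 25 regions, with Adora2a on the horizontal and Ppp1r1b, DRD2 or PENK on the vertical axis, all as CPM on logarithmic axes and 1 point per region. The accumbens, BLA, BNST and LS lie at the top right for all 3 transcripts, while regions with little Adora2a spread widely in DRD2 and PENK.

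Among the members of the adenosine list with an identifier, the regional pattern was not shared. Nt5e, the ectonucleotidase that makes extracellular adenosine from AMP, had r = 0.18 with Adora2a. Ahcy, which splits S-adenosylhomocysteine to adenosine and homocysteine, had r = 0.29, and the mitochondrial nucleotidase Nt5m had r = 0.02. The other adenosine receptors and the adenosine transporters were not analysed here. The 8 cAMP genes ranged widely, from Ppp1r1b at r = 0.88 over Gnb2 (0.46), Pde2a (0.37), Rgs10 (0.29), Prkacb (0.13), Gnai2 (0.06) and Adcy1 (-0.13) to Adcy7 at -0.33.

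The second question was what fluoxetine did to Adora2a in each region. A call required an adjusted p of at most 0.1 over all transcripts of the region and an absolute log2FC of at least 0.32, the thresholds of the study. Adora2a is on the study's list because it had been called there in 2 or more regions, so these tests are not independent of that choice. It passed the low-count filter in all 25 regions. In edgeR it rose in 1 region, LH (lateral hypothalamus), where 0.0965% of 13466 transcripts were called, 0.0446% higher and 0.052% lower. In the other regions edgeR called between 0% and 24.6% of transcripts, and 0.229% in NaCcore. In DESeq2, the study's own tool, it rose in LH, where 2.35% of transcripts were called, and in NaCcore, where 4.27% were. DESeq2 gave no adjusted p for it in 8 regions, and it fell past the threshold in none of the others with either tool.

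In LH, the Sham samples of replicates 1, 3, 4 and 5 had 2.96, 3.10, 1.97 and 1.41 CPM of Adora2a, from 49, 12, 44 and 38 counts. The FT samples had 9.60, 10.4, 5.37 and 4.44 CPM, from 143, 34, 91 and 78 counts. Every FT sample lay above every Sham sample, a separation seen in 0.951% of the transcripts tested there. The 4 within-pair log2 ratios were close together, at 1.65, 1.70, 1.38 and 1.56, and 13.3% of transcripts there had every pair higher. The log2FC was 1.63 (SE 0.25) with adjusted p = 0.0995 in edgeR, just inside the threshold, and 1.63 (SE 0.33) with adjusted p = 0.000251 in DESeq2.

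The size of the LH change hardly moved with the processing, but the edgeR call did. Without the replicate block the log2FC was 1.68 and adjusted p = 1.00, and with scaling by total counts it was 1.55 with adjusted p = 0.1254. Leaving out replicate 1, whose Sham library is one of those with corrupted raw reads, kept the call (1.58, adjusted p = 0.0650). Leaving out replicate 3, 4 or 5 lost it, with adjusted p of 0.104, 0.415 and 0.284 and log2FC of 1.59, 1.67 and 1.64. DESeq2 kept the call without replicate 1, 3 or 4 and gave no adjusted p without replicate 5. With fluoxetine LH stood at 7.46 ± 2.99 CPM (SD, n = 4), still well under the 32.4 CPM of LS in Sham. Its mean ranked 8 among the regions in FT, against 17 in Sham.

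Other striatal transcripts did not all move with Adora2a in LH. Ppp1r1b was called with it (log2FC 1.11, SE 0.18, adjusted p = 0.0995 in edgeR). It rose from 19.3, 22.0, 10.2 and 8.56 CPM in Sham to 54.6, 48.4, 17.7 and 17.1 CPM in FT, with the groups overlapping but every pair higher. DRD2 and PENK, the indirect-pathway genes, had log2FC of 0.12 (SE 0.28) and 0.06 (SE 0.25), but their pairs differed in sign. In replicates 1, 3, 4 and 5 the log2 ratios of DRD2 were 0.79, 0.54, -0.25 and -0.59. Those of PENK were 0.59, 0.48, 0.01 and -0.86. In log2FC the remaining markers lay between these genes and Ppp1r1b. Syndig1l had 0.82 (SE 0.21), the sodium channel subunit Scn4b 0.71 (SE 0.19) and Rasd2 0.41 (SE 0.17), none called by edgeR. DESeq2 also called Syndig1l and Scn4b. In all 4 pairs the Adora2a ratio was larger than that of DRD2, by 0.86 to 2.15 on the log2 scale, and than that of PENK, by 1.06 to 2.42. It exceeded Ppp1r1b by 0.16 to 0.60. With 4 pairs an exact sign-flip test cannot go below p = 0.13, the value obtained for each of these 3 differences.

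Some markers of other cells also shifted in LH, whereas the choline transporter gene Slc5a7 had log2FC 0.11. Ttr, the choroid plexus transthyretin gene, had log2FC -1.29 (SE 0.36, adjusted p = 0.151) and was lower in 4 of 4 pairs. The complement gene C1qa of microglia had 0.66 (SE 0.16, adjusted p = 0.134), but Cx3cr1, also a microglial gene, had -0.998 (SE 0.38, adjusted p = 0.235). DESeq2 called Ttr lower and C1qa higher. The summed striatal markers ran from 143 to 331 CPM in Sham and from 191 to 531 in FT. No endothelial, astrocyte or oligodendrocyte marker of the lists had an identifier, so those cells were not assessed. In such bulk samples a different share of cells of 1 type and a different RNA content per cell cannot be told apart, and the part of either in the LH result was not tested.

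**Figure D3:**
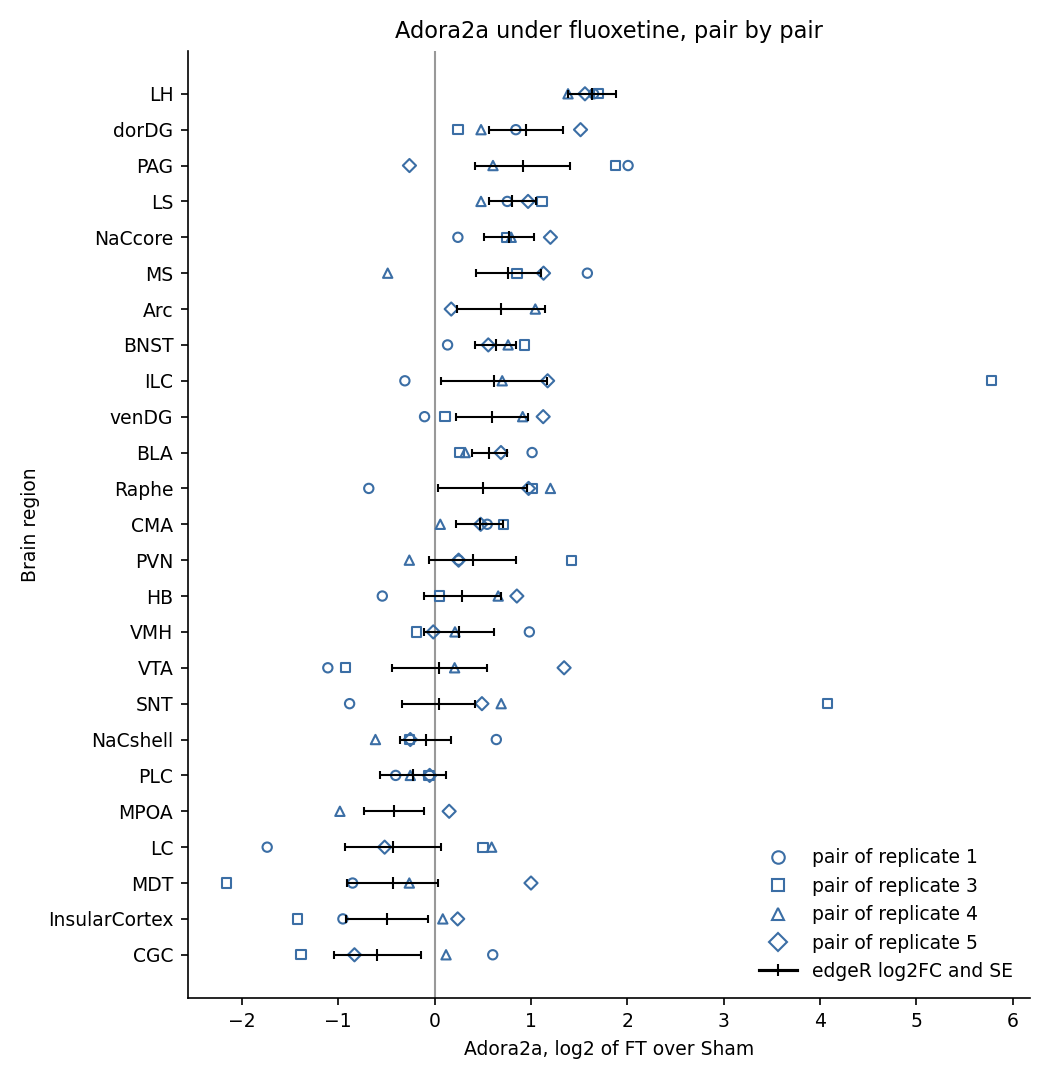
Adora2a under fluoxetine in each region, with the log2 ratio of FT to Sham on the horizontal axis. Open symbols are replicate pairs, the black mark is the edgeR log2FC with its SE, and the CGC pair of replicate 1 is drawn although the CGC fit leaves it out. The 4 pairs of LH lie together between 1.38 and 1.70, whereas the pairs of most other regions straddle or approach 0. The far points in ILC and SNT come from Sham libraries with 0 counts and depend on the prior count.

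In NaCcore, Adora2a was at 238, 175, 69.1 and 45.4 CPM in the Sham samples of replicates 1, 3, 4 and 5. It was at 281, 294, 120 and 105 CPM in the FT samples. FT was higher within all 4 pairs, by 0.24, 0.75, 0.80 and 1.20 on the log2 scale, but the groups overlapped because the numbers differ so much in level. The log2FC was 0.77 (SE 0.26), with adjusted p = 0.196 in edgeR and 0.0568 in DESeq2. In DESeq2 the call held only without replicate 5 (log2FC 0.62, adjusted p = 0.0920) among the 4 fits that leave out a number, with adjusted p of 0.111 without replicate 1, 0.293 without 3 and 0.389 without 4.

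Unlike in LH, the other striatal transcripts in NaCcore had ratios of the same size. DRD2 had log2FC 0.80 (SE 0.26), PENK 0.98 (SE 0.36), Ppp1r1b 0.97 (SE 0.31), Rasd2 1.01 (SE 0.28), Syndig1l 0.87 (SE 0.28) and Scn4b 0.83 (SE 0.25). None was called by edgeR (adjusted p from 0.169 to 0.223), and all 6 were called by DESeq2. Each was higher in 4 of 4 pairs. The mean within-pair difference between Adora2a and DRD2 was -0.03 ± 0.77 (SD, n = 4), and Adora2a had the larger ratio in 1 of 4 pairs. Here too other markers shifted, with Ttr at log2FC 2.30 (SE 0.69), C1qa at 0.82 (SE 0.25) and the choline transporter gene Slc5a7 at -0.82 (SE 0.27), all uncalled by edgeR and called by DESeq2. The part of tissue composition in the NaCcore values was not tested.

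NaCshell gave no such difference. Adora2a stood at 122, 141, 104 and 69.0 CPM in Sham and at 190, 118, 68.0 and 58.0 CPM in FT, higher in 1 of 4 pairs. Ttr was lower there in 4 of 4 pairs (log2FC -2.69, called by DESeq2). The Adora2a log2FC was -0.09 (SE 0.27), and its sign turned without the replicate block or without replicate 4. The FT effect in NaCcore exceeded that in NaCshell by 0.87 (SE 0.42) in a joint edgeR fit of all regions, with unadjusted p = 0.0415 and adjusted p = 0.773, so a difference between core and shell was not established. In that contrast 0.231% of transcripts passed.

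**Figure D4:**
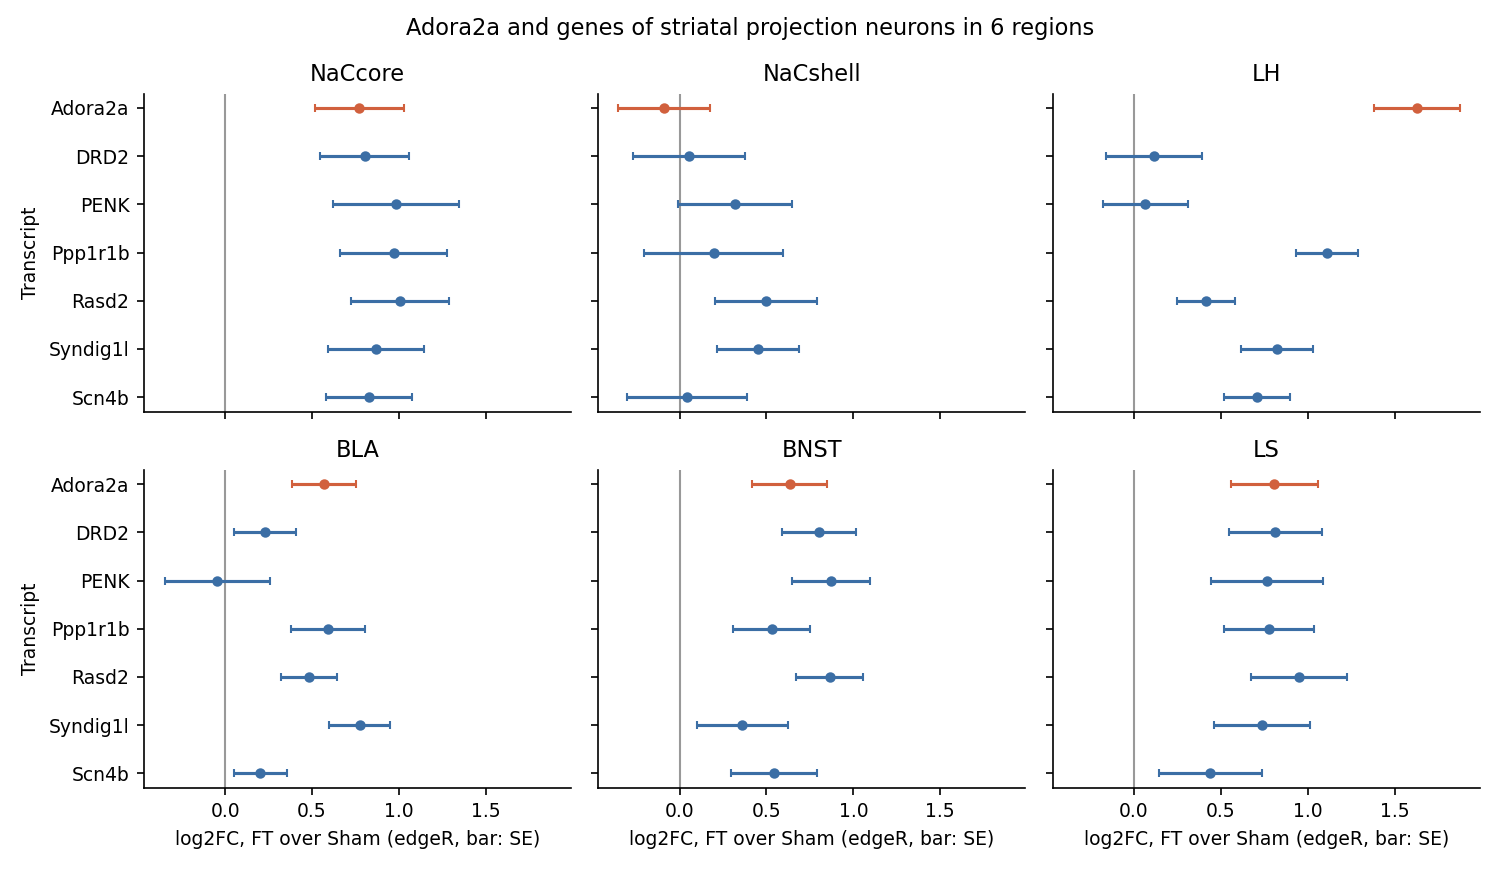
The edgeR log2FC of FT over Sham with its SE, on the horizontal axis, for Adora2a and 6 genes of striatal projection neurons in 6 regions. In NaCcore, BNST and LS the 7 transcripts lie together on the positive side, whereas in LH Adora2a stands at 1.63 with DRD2 and PENK near 0. The LH pairs of DRD2 and PENK, which are not drawn, differed in sign.

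Beyond LH and NaCcore, Adora2a reached an unadjusted p below 0.05 in 5 regions, in each with FT higher and none with a call. Of these, 3 are among the regions richest in the transcript. In LS the Sham samples had 33.6, 19.8, 44.1 and 32.3 CPM and the FT samples 56.7, 43.0, 61.6 and 63.5 CPM, with log2FC 0.81 (SE 0.25, adjusted p = 0.497). In BNST the Sham samples had 65.1, 66.4, 21.0 and 26.1 CPM and the FT samples 71.5, 127, 35.7 and 38.4 CPM, with log2FC 0.63 (SE 0.22, adjusted p = 0.376). In BLA the Sham samples had 103, 130, 61.0 and 51.9 CPM and the FT samples 209, 155, 76.1 and 83.8 CPM, with log2FC 0.57 (SE 0.18, adjusted p = 0.281). All 4 pairs were higher in FT in each of these regions, and the groups overlapped in each. DRD2 and PENK had log2FC of 0.80 and 0.87 in BNST and 0.81 and 0.77 in LS, but 0.23 and -0.05 in BLA. Markers of other cells shifted there too, uncalled by either tool. Ttr had log2FC -2.41 (SE 1.16) in BNST, 1.30 (SE 0.70) in BLA and -0.50 (SE 0.40) in LS, and Slc5a7 had -0.89 (SE 0.28), -0.32 (SE 0.17) and -0.59 (SE 0.37). The microglial genes C1qa and Cx3cr1 had 0.32 and 0.69 in BNST, 0.32 and -0.77 in BLA and 0.39 and -0.60 in LS. Their part in the Adora2a values was not tested.

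The other 2 were MS and dorDG (dorsal dentate gyrus). In MS the Sham samples had 9.07, 10.5, 16.7 and 7.79 CPM and the FT samples 27.5, 19.2, 11.9 and 17.2 CPM, and replicate 4 went against the other pairs. Its log2FC was 0.77 (SE 0.34, adjusted p = 0.315). Without the low-count filter edgeR called it (log2FC 0.84, adjusted p = 0.0981), as did DESeq2 without replicate 4 (log2FC 1.22, adjusted p = 0.0875). In MS, Ttr was lower in 4 of 4 pairs, with log2FC -3.86 (SE 0.98), and C1qa was higher in 4 of 4, with 0.75 (SE 0.24), both called by DESeq2 and not by edgeR. Slc5a7 had -0.84 (SE 0.32) and Cx3cr1 -0.35 (SE 0.28), and the part of these markers in the MS values was not tested. In dorDG the level was near 1 CPM, from 4 to 38 counts per library, and the log2FC was 0.95 (SE 0.38, adjusted p = 0.322).

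In the remaining 18 regions the log2FC ran from -0.59 (SE 0.45) in CGC, fitted without replicate 1, to 0.91 (SE 0.49) in PAG. A log2FC below 0 was found in 7 of the 25 regions, including PLC, at -0.23 (SE 0.34). There the ratio was negative in 4 of 4 pairs but small, and 7.55% of transcripts had every pair lower. The precision differed between regions, since the SE was 0.18 to 0.27 in the 5 regions richest in Adora2a and reached 0.55 in ILC. In Arc and PAG, log2FC of 0.69 and 0.91 came with SE of 0.45 and 0.49 and did not pass the test. Arc was the other region where the FT samples (0.937 to 4.78 CPM) lay above the Sham samples (0.587 and 0.816 CPM). With only 2 Sham samples such a separation was seen in 15.0% of transcripts.

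Across regions the direction leaned upwards. Adora2a had a positive log2FC in 18 of the 25 regions, the median being 0.47, and FT was higher in 67 of 96 pairs. Averaged over regions, the within-pair log2 ratio was 0.16 for replicate 1, 0.65 for replicate 3, 0.34 for replicate 4 and 0.56 for replicate 5. Their mean was 0.43 ± 0.22 (SD, n = 4), with exact two-sided sign-flip p = 0.13, the smallest that 4 numbers can give. The replicate 3 value rested on the ILC and SNT pairs, whose Sham libraries had 0 counts. Without them it was 0.25 over 21 regions, and the mean over replicates was 0.33. In the joint edgeR fit of all regions the mean FT effect on Adora2a was 0.32 (SE 0.08, adjusted p = 0.000157), with regions taken as independent, and 57.9% of transcripts passed in it. A lean of this kind was common among transcripts. Of the 11365 tested in all regions, 32.3% had a positive log2FC in at least 18. All 4 pairs were higher in 7 of the 23 regions with 4 pairs, which 15.9% of transcripts matched or exceeded, and within a region a median of 11.9% of transcripts had all 4 pairs higher.

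Whether the FT effect itself differed between regions was tested in the joint fit. The F test of equal effects gave F = 2.29 with unadjusted p = 0.00310 and adjusted p = 0.344, and 0.0231% of transcripts passed. LH and NaCcore, picked after their values were seen, were also set against the mean effect of the others. The LH effect exceeded that mean by 1.35 (SE 0.35), with unadjusted p = 0.000203 and adjusted p = 0.584, and 1 of 17294 transcripts passed (0.00578%). The NaCcore effect exceeded it by 0.44 (SE 0.31), with adjusted p = 0.633 and 0% of transcripts past the threshold. A region-specific response of Adora2a was therefore not established after adjustment over all transcripts.

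The genes around the receptor were read from the same fits. These lists cover only members with an identifier, all of which the study had called in 2 or more regions, so their calls are not independent evidence. Among the other members of the adenosine list, Ahcy was called higher in Arc (log2FC 0.57), MPOA (0.88) and Raphe (0.65). Its log2FC was above 0 in 25 of 25 regions, as was that of Nt5m. The share of all transcripts with so uniform a direction was not counted. Nt5e was called higher in Arc (1.13) and MPOA (1.54). Nt5m was called by edgeR in none and by DESeq2 in 2 regions, NaCcore and VTA. In LH, Adora2a was the only 1 of these 4 called. The median log2FC of the 4, Adora2a included, was 0.54 in LH against 0.01 over all transcripts, but it was above 0 in 25 of 25 regions, from 0.08 to 0.86. The 2 regions with 2 samples in a group had many calls, 24.6% of transcripts in Arc (13.7% higher, 10.8% lower) and 9.59% in MPOA (4.85% and 4.74%), against 6.6% in Raphe (3.08% and 3.51%).

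Of the list of cAMP signalling genes, 8 could be read. The catalytic subunit gene of protein kinase A, Prkacb, was called lower in Arc (log2FC -1.73) and MPOA (-1.02), and DESeq2 called it lower in 9 regions, NaCcore among them (-1.01, adjusted p = 0.0406). Over the regions DESeq2 called between 0.216% and 5.65% of transcripts. The G protein subunit gene Gnb2 was called lower in Arc (-1.49) and MPOA (-1.64), and the adenylyl cyclase gene Adcy7 in Raphe (-1.47). Called higher were the phosphodiesterase gene Pde2a in Arc (0.73), the regulator of G protein signalling Rgs10 in Arc (0.80) and Ppp1r1b in LH. Gnai2, an inhibitory G protein subunit, and the adenylyl cyclase gene Adcy1 were not called by edgeR in any region. DESeq2 called Gnai2 higher in 5 regions and Adcy1 lower in 2. The log2FC was above 0 in 1 of 25 regions for Prkacb, 0 of 20 for Adcy1, 3 of 25 for Gnb2 and 3 of 22 for Adcy7. It was above 0 in 23 of 25 regions for Gnai2, in 22 for Pde2a and for Rgs10, and in 21 for Ppp1r1b. Members outside the adenosine list thus also leaned mostly 1 way. How many of all transcripts lean this uniformly was not counted for these genes. Among the striatal markers outside LH, edgeR called Rasd2 (0.48) and Syndig1l (0.96) higher, both in Arc, and called DRD2, PENK and Scn4b in no region.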

How the data were processed

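Bulk RNA-seq was analysed from 196 pooled tissue samples. Per the submitters' processing notes and the study's methods, the authors aligned reads to the rn5 genome with STAR, counted them per transcript with HTSeq and checked them with FastQC. The deposited values are raw counts, one file per sample, and the versions and the strand setting are not given in the sources used here. Reads shared between transcripts are set aside by such counting, and the rows for ambiguous reads (median 5.52%) and for reads outside features (median 40.3%) were kept out of library sizes. Columns of the authors' own fold changes and p-values were not used. Transcript names came from the study's list of 1989 transcripts, 1845 with a name, so most list genes were not analysed here.

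Within each region, edgeR 4.0.16 (R 4.3.3) fitted the counts with TMM factors, filterByExpr (minimum count 10, minimum total 15) and the replicate number as a block, as in the study's methods. Benjamini-Hochberg adjustment covered all transcripts of the region, and a call needed an adjusted p of at most 0.1 and an absolute log2FC of at least 0.32. The SE is the log2FC divided by the square root of F. Samples with the same number deviated together, with a median correlation of 0.677 over regions and every pair above 0.1 in 22 of 25 regions. CGC was fitted without replicate 1, whose pair had a log2 ratio of 0.60. The study's methods removed 2 CGC replicates as outliers without giving their numbers, so the choice of replicate 1 was made here. Levels and regional differences in FT effect came from joint edgeR fits at an adjusted p of 0.05, and within-pair log2 ratios used a prior count of 2. The mean over replicate numbers was tested with an exact two-sided sign-flip test. DESeq2 1.42.0, other scalings, no filter, no block and leaving out each replicate were tried as alternatives, and scripts were tested on simulated data. Python 3.11.15, scipy 1.17.1 and pandas 2.3.3 were also used.

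Named are Adora2a, every list member with an identifier and the 10 named transcripts most like it by Pearson r. Members and lists were chosen with earlier results of these data known. Since samples are pools, p-values measure the spread between pools.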

Additional observations from a re-analysis of the deposited data

Results flagged for a closer look

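In MDT, FT replicate 3 had 1.49 CPM of Adora2a, while the other FT samples had 3.37 to 3.60, a gap of 0.892 of the group's range. In Raphe, Sham replicate 1 had 4.34 CPM, while the others had 0.754 to 1.27, a gap of 0.856 of the range. These were 2 of 48 groups of 4 samples tested, and chance gives about 5% of groups.

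Adora2a was lower in FT in all 4 pairs of PLC (log2FC -0.23) and higher in all 4 pairs of BLA, BNST, CMA, LH, LS, NaCcore and dorDG. In PLC 7.55% of transcripts had every pair lower. In the other named regions 9.63% (LS) to 14.2% (NaCcore) had every pair higher. The difference between PLC and these regions was not tested.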

How the results depend on the processing

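The accumbens level and the direction of the LH and NaCcore log2FC held under every alternative run, while calls did not. Adora2a was called in 1 region, against 2 with DESeq2, 2 without the low-count filter, 0 without the replicate block, 0 with total counts, 0 at an adjusted p of 0.05, 0 to 1 in edgeR and 1 to 2 in DESeq2 when a replicate was left out. The LH call was lost without the replicate block (log2FC 1.68), with total counts (1.55) and at an adjusted p of 0.05 (1.63). Leaving out each replicate gave 1.58 to 1.67 in edgeR and 1.60 to 1.69 in DESeq2, which gave no adjusted p without replicate 5. NaCcore was called by DESeq2 (0.77), and leaving out each replicate gave 0.62 to 0.92 in DESeq2. MS was called without the filter (0.84), and leaving out each replicate gave 0.50 to 1.22 in DESeq2.

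Signs turned in 5 regions, none of them called. Without the replicate block it was 0.042 in NaCshell, -0.11 in SNT and -0.25 in VTA. With DESeq2 it was -0.20 in SNT and -0.032 in VTA, and with total counts -0.027 in SNT. Leaving out each replicate gave -0.77 to 0.088 in LC (DESeq2 -0.74 to 0.15), -0.39 to 0.041 in NaCshell (DESeq2 -0.40 to 0.064), -0.26 to 0.60 in SNT (DESeq2 -0.76 to 0.075, with -0.32 without replicate 1 and -0.63 without replicate 5), -0.0056 to 0.43 in VMH and -0.54 to 0.41 in VTA (DESeq2 -0.60 to 0.37, with -0.21 without replicate 4). The Sham difference between NaCcore and NaCshell was -0.24 with total counts and -0.27 to 0.27 without each replicate. With ranks, 5 of the 10 transcripts most like Adora2a were shared. The block changed no other call. The causes were not tested. The DESeq2 fits without each replicate and the mean effect without the shallow pairs were chosen after seeing the data. The joint fit of FT effects was not run without the low-count filter, nor for single regions other than LH and NaCcore.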
